A study of Saccharomyces cerevisiae with 10 samples.

Results

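The baseline transcriptome of the BY strain of Saccharomyces cerevisiae, a haploid laboratory yeast, was described from the 5 RNA sequencing libraries whose labels give the strain as BY with wild-type *UBR1*. They are 5 of the 10 libraries of the series and were chosen by that label alone. The 5 libraries of the strain with a variant in the *UBR1* promoter are not described here. The labels name the strain as BY4741, and the methods of the study list it as MATa with *HIS3* and *HO* deleted. The cultures were grown in synthetic complete medium, whose amino acid mix is listed in the methods of the study without lysine. They were harvested together and are written BY 1 to BY 5 by their replicate numbers. RNA was extracted in 2 batches, and the batch of each library is not given in the sources used here, so differences between batches and between cultures cannot be told apart.

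A yeast mRNA pool is set by how fast each gene is transcribed and how long its mRNA lasts. In cells that grow on glucose, a large part of the messages is known to serve a small set of tasks, among them to build ribosomes, to ferment glucose to ethanol and to lay down the cell wall. Many of these tasks are encoded by pairs of similar genes, called paralogs, most of which descend from an ancient duplication of the whole genome. Genes for other carbon sources, for meiosis and for the opposite mating type are known to be held at low levels under such conditions.

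Levels are given in TPM, for which the reads of each transcript are divided by its effective length and then scaled to a sum of 1000000 per library. A TPM is thus a share of the RNA in a library, and fewer cells with a message and less of it per cell cannot be told apart. The libraries held between 72105131 and 94432416 estimated counts. A chi-square per degree of freedom of 80.7 to 467 separated each pair of libraries, so none of them was a repeat of another within sampling noise. The tables list 6612 transcripts, 5929 of which match a gene of the RefSeq annotation of the R64 genome, and the lengths are those of coding sequences. Of all transcripts, 470 are under 300 bases. With fragments averaging 215 to 221 bases, these have effective lengths down to 4.55 bases, so few reads give a high TPM. They held 35.0 to 37.9% of the summed TPM but 2.79 to 3.06% of the estimated counts, and the ranking below separates them from transcripts of at least 300 bases.

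Few transcripts made up most of the pool. On the mean of the 5 libraries, 90 transcripts held 50% of the summed TPM and 1258 held 90%. In single libraries 82 to 95 transcripts held 50%. Among transcripts of at least 300 bases, rescaled to their own sum, 122 held 50% and 1672 held 90%. Counted by estimated counts in place of TPM, which favours long messages, 292 transcripts held 50% and 2569 held 90%. A mean of at least 1000 TPM was reached by 198 transcripts, at least 100 TPM by 996 and at least 10 TPM by 4425. The median of the 6027 detected transcripts was 21.8 TPM, with 5% of them below 1.16 TPM and 5% above 482 TPM.

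**Figure D1:**
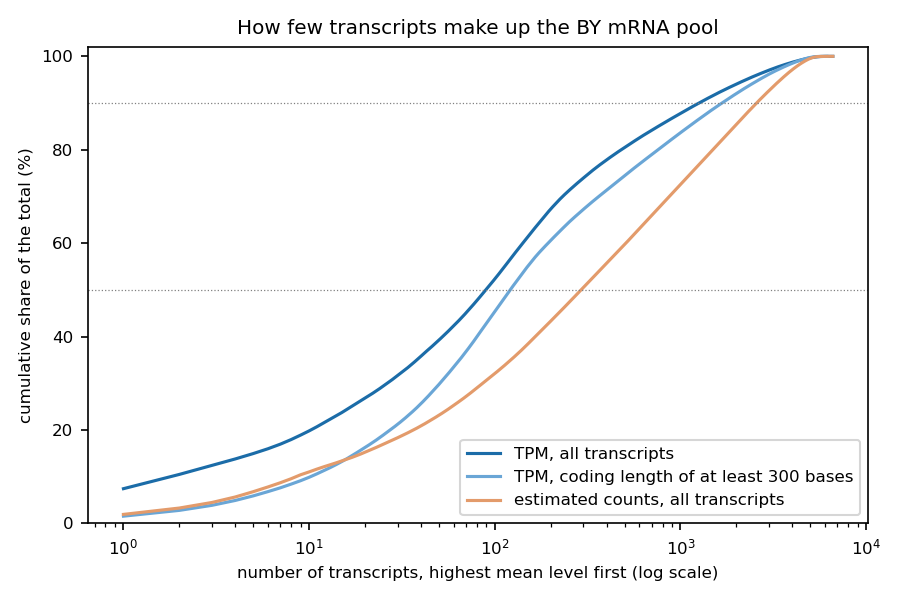
Cumulative share of the total (y axis, percent) against the number of transcripts, taken from the highest mean of the 5 BY libraries down (x axis, log scale), with dotted lines at 50% and 90%. The curve of TPM over all transcripts reaches 50% at 90 transcripts, that of TPM over transcripts of at least 300 bases at 122 and that of estimated counts at 292.

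Among transcripts of at least 300 bases, *TDH3* was the highest. *TDH3* encodes the main glyceraldehyde-3-phosphate dehydrogenase of glycolysis and had 9949, 10360.3, 9858, 9589 and 9579 TPM in BY 1 to BY 5, with a mean of 9867 ± 320 TPM (SD, n = 5). *CCW12*, which encodes a mannoprotein of the cell wall, came next with 7642, 7949, 7272, 7955 and 8791 TPM. The ranges of these 2 messages did not overlap. The ribosomal protein message *RPS20* averaged 6933 ± 370 TPM, and *RPS31*, which encodes ubiquitin fused to a ribosomal protein, averaged 6641 ± 344 TPM (SD, n = 5 each). The lowest *RPS20* library stood at 6573 TPM and the highest *RPS31* library at 7114 TPM, so these neighbours in the ranking overlapped.

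Of the 20 highest transcripts of at least 300 bases, 6 encode enzymes of glycolysis or of ethanol fermentation. *FBA1*, the aldolase, averaged 6274 ± 609 TPM, and *ADH1*, the alcohol dehydrogenase that makes ethanol, averaged 5815 ± 514 TPM (SD, n = 5 each). *GPM1*, the phosphoglycerate mutase, had a mean of 4668 TPM, *TPI1*, the triose phosphate isomerase, of 4489.7 TPM and *ENO2*, an enolase, of 4165 TPM. In each of these 3 messages BY 5 was the lowest library and BY 1, BY 2 or BY 3 the highest. The ribosomal proteins in the top 20 also included *RPS12*, *RPL36B*, *RPL32*, *RPL30*, *RPP1A*, *RPS10A*, *RPL31A*, *RPP2B*, *RPL28* and *RPL25*, with means between 3613 TPM in *RPL25* and 5227 TPM in *RPS12*. *TEF2*, one of the genes of translation elongation factor 1 alpha, had 4006 ± 396 TPM (SD, n = 5). Only 4.6% of the 31-base words of *TEF2* occur in no other transcript, since *TEF1* encodes the same protein, and how the reads were split between them is uncertain.

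The 5 highest transcripts under 300 bases were *YLR154C-G*, *YDR524C-B*, *HOR7*, *RPL41A* and *CWP2*. *YLR154C-G* alone averaged 74286 TPM, with 68563, 72476, 67680.2, 109443 and 53268 TPM in BY 1 to BY 5, or 5.33 to 10.9% of the summed TPM of a library. It has 150 bases and an effective length of 6.12 bases, and it lies at chrXII:462522-462671 on the minus strand of R64, wholly inside the gene of the 25S ribosomal RNA, *RDN25-2*, on the same strand. Reads from ribosomal RNA and from *YLR154C-G* cannot be told apart here, and BY 4 was highest and BY 5 lowest. Its sequence is shown because reads of this stretch carry the largest TPM of the tables.
YLR154C-G: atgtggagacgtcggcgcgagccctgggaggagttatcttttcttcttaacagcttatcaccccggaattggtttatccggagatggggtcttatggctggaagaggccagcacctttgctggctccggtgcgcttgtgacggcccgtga

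The remaining short messages at the top do not overlap another annotated gene. *YDR524C-B*, a small protein of unknown function, averaged 30565 ± 3172 TPM, *HOR7*, a message that responds to osmotic stress, 19343 ± 3474 TPM, and *CWP2*, a major mannoprotein of the cell wall, 11539 ± 1295 TPM (SD, n = 5 each). *RPL41A* encodes the smallest ribosomal protein and had 17343, 15436, 13102, 8876 and 14063 TPM in BY 1 to BY 5. Its paralog *RPL41B* had 8964, 8371, 7303, 4563 and 5646 TPM, lower than *RPL41A* in each of the 5 libraries. The coding sequences lie at chrIV:130407-130484 (RPL41A) and chrIV:221724-221801 (RPL41B), both on the minus strand of R64, and differ at 1 of 78 bases (98.7% identity). That base is written in a capital to show how little sequence separates the reads of the 2 copies.
RPL41A: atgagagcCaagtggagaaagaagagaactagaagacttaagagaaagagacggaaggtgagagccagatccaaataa
RPL41B: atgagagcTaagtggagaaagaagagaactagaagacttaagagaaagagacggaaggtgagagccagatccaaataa

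Messages of ribosomal proteins were the largest functional group. The 138 genes of cytosolic ribosomal proteins held 36.4 ± 1.65% of the summed TPM (SD, n = 5), and 136 of them stood at 100 TPM or more, with a median of 2109.7 TPM. The lowest was *RPL15B* at 63.3 TPM. Their share of the estimated counts was 17.7%, since their coding sequences are short, and without *YLR154C-G* their share of TPM was 39.3%. The 24 genes of glycolysis and ethanol fermentation held 5.13 ± 0.29% of TPM and 11.6% of the counts, so that the ratio of the 2 groups depends strongly on the unit. The 47 cell wall genes held 2.89 ± 0.19% and the 43 translation factors 2.22 ± 0.14% of TPM (SD, n = 5 each). All 20 groups together, 924 genes, held 59.1 ± 1.79% of TPM and 55.6% of the counts.

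**Figure D2:**
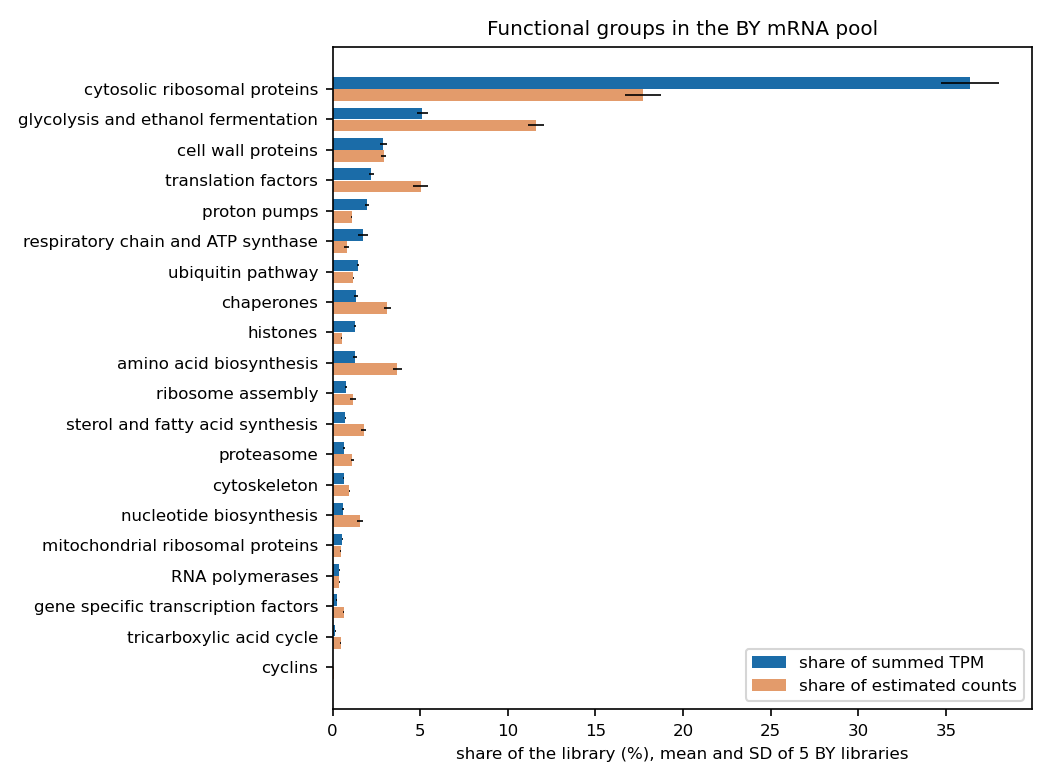
Share of the library (x axis, percent) held by each of 20 groups of genes, as bars of the summed TPM and of the estimated counts with the mean and SD of the 5 BY libraries. Ribosomal protein genes hold 36.4% of TPM against 17.7% of the counts, while glycolysis holds 5.13% of TPM against 11.6% of the counts.

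Energy and membrane groups were sensitive to the unit. The list of 20 genes named proton pumps here held 1.96% of TPM and 0.859% without transcripts under 300 bases. Its highest member, *PMP3* at 9819.5 TPM, is a small membrane protein that modulates ion transport and not a pump subunit. *PMP3* alone carried a large part of the 1.96%, which is thus not the share of the pumps themselves. The lowest member, *PMA2*, a second gene for the plasma membrane proton pump, stood at 2.25 TPM. The 41 nuclear genes of the respiratory chain and the ATP synthase held 1.73 ± 0.27% of TPM (SD, n = 5), 0.973% without transcripts under 300 bases and 0.795% of the counts, and ranged between 2194 TPM for *ATP15*, a subunit of the ATP synthase, and 2.09 TPM for *NDE2*, an external NADH dehydrogenase. The tricarboxylic acid cycle, with 19 genes, held 0.162% of TPM, 0.254% without transcripts under 300 bases and 0.474% of the counts, and its members ranged between 206 TPM for *MDH1*, the mitochondrial malate dehydrogenase, and 1.29 TPM for *CIT3*, a minor citrate synthase. By each of these measures the share of respiration was the higher one, by an amount that depended on the unit. Of its genes, 38 of 41 stood at 100 TPM or more, against 9 of the 19 genes of the cycle.

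Genes that fold and degrade proteins made up smaller shares. The 52 chaperone genes held 1.33% of TPM, between 2036 TPM for *CPR1*, cyclophilin, and 7.83 TPM for *JEM1*, a co-chaperone of the endoplasmic reticulum. The 30 genes of the ubiquitin pathway held 1.47%, but *RPS31*, *RPL40A* and *RPL40B*, fusions of ubiquitin to ribosomal proteins, are among them at 6641, 2707 and 2755 TPM and are also counted with the ribosomal proteins. The lowest was the ubiquitin-conjugating enzyme *UBC11* at 2.23 TPM. The 39 proteasome genes held 0.648% with a median of 148 TPM, between 657 TPM for *SEM1* and 12.4 TPM for *ECM29*, both of which associate with the regulatory particle. *UBR1*, the ubiquitin ligase of the N-end rule whose locus defines the strains of the series, averaged 10.8 ± 0.930 TPM (SD, n = 5), with 11.3, 11.5, 11.6, 9.46 and 10.2 TPM in BY 1 to BY 5.

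Biosynthetic genes were spread widely in level. The 89 genes of amino acid biosynthesis held 1.28% of TPM, between 1100.3 TPM for *GLN1*, the glutamine synthetase, and 3.40 TPM for *GDH3*, a glutamate dehydrogenase. Within them the 8 lysine genes ranged between 927 TPM for *LYS9* and 16.1 TPM for *LYS5*, in a medium listed without lysine. The 36 nucleotide genes held 0.590%, between 628 TPM for the adenylate kinase *ADK1* and 1.57 TPM for *RNR3*, a subunit of ribonucleotide reductase that is known for its induction by DNA damage. The 46 genes of sterol and fatty acid synthesis held 0.733%, between 1814 TPM for *ACB1*, which carries acyl-CoA, and 13.4 TPM for *INO1*, which starts inositol synthesis. In none of these 4 groups did a member fall below 1 TPM.

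Genes that make the gene expression machinery itself varied in level by their product. The 11 histone genes held 1.29% of TPM and ranged between 2786 TPM for *HHF2*, a histone H4 gene, and 21.3 TPM for *CSE4*, the centromeric variant of H3. The 76 ribosome assembly genes held 0.750%, between 3039 TPM for the short *NOP10* and 2.75 TPM for the helicase *DHR2*. The 31 RNA polymerase genes held 0.368%, between 814 TPM for *RPB10* and 11.7 TPM for *RPO31*. The 74 mitochondrial ribosomal proteins held 0.565% with a median of 54.2 TPM, between 499 TPM for *MRPL39* and 10.9 TPM for *RSM22*, against a median of 2109.7 TPM for the cytosolic ones. The 30 cytoskeleton genes held 0.628%, between 1273 TPM for profilin, *PFY1*, and 2.43 TPM for the formin *BNR1*.

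Regulators were low. The 68 gene-specific transcription factors held 0.230% of TPM with a median of 16.9 TPM, and 2 of them stood at 100 TPM or more. *GCN4*, the activator of amino acid biosynthesis, was the highest with 531, 499.9, 578, 519.8 and 610.5 TPM in BY 1 to BY 5, and *DAL80*, a repressor of nitrogen genes, was the lowest at 0.379 TPM. *GCN4* is known to be controlled at translation, which a level of mRNA does not show. The 15 cyclins held 0.0394%, between 139 TPM for *PCL5* and 1.68 TPM for the S phase cyclin *CLB6*. The translation factors ranged between *TEF2* and *HEF3*, a second gene for elongation factor 3, at 1.88 TPM.

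Structure and sequence went with level. The 274 annotated nuclear genes with an intron held 22.7% of TPM, of which the 90 ribosomal protein genes among them held 20.2% and the other 184 held 2.47%. Across the 5483 detected nuclear transcripts of at least 300 bases, Spearman's rho with the mean TPM was -0.37 for coding length and 0.29 for GC content. These are relations across genes, which are not independent replicates, and effective length also enters the calculation of TPM. The highest 549 of these transcripts, each at 156 TPM or more, held 75.9% of their TPM and had a median coding length of 660 bases, against 1395 bases in the lowest 549.

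Paralogs were compared within each library, since both copies are measured in the same RNA. Pairs were found as mutual best hits between proteins, and 501 pairs of at least 300 bases, with a copy at 10 TPM or more and with enough sequence of their own to place reads, were tested with limma on the log2 ratio of the copies, log2(TPM + 1), with Benjamini-Hochberg adjustment. The copies had unequal levels in 452 of the 501 pairs (90.2%). Their means were at least 2-fold apart in 283 pairs (56.5%), at least 4-fold in 163 (32.5%) and at least 10-fold in 93 (18.6%), with a median of 2.23-fold. In 78 pairs the copies were less than 1.25-fold apart. Of the 218 pairs under 2-fold apart, 170 were called unequal as well. The error of this test is the spread of the ratio between libraries. A bias of sequence or read placement that all libraries share would enter the ratio and not the error. A call thus shows a reproducible ratio of TPM, and such biases were not tested.

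The pair with the largest ratio was *ADH1* and *ADH2*, the alcohol dehydrogenases that make ethanol and that use it. *ADH1* had 6421, 6061, 6037, 5215 and 5344 TPM in BY 1 to BY 5, and *ADH2* had 2.42, 2.08, 2.30, 2.06 and 2.10 TPM. By mean TPM *ADH1* was 2653-fold higher. The log2 ratio that was tested uses TPM + 1, which shrinks it, and was 10.83 ± 0.05 (SE, limma adjusted p = 1.84e-10). The promoter of *ADH2* is known to be shut by glucose. *HXT2*, a hexose transporter, averaged 621 TPM and *HXT10* 0.337 TPM, a ratio of 1843-fold. *PDC1*, the main pyruvate decarboxylase, averaged 2761 ± 242 TPM and *PDC5* 9.69 ± 2.17 TPM (SD, n = 5 each), 285-fold apart. No library of the lower copy reached any library of the higher copy in these 3 pairs.

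Other pairs had large ratios as well. *UGP1*, which makes UDP-glucose, stood 924-fold above *YHL012W*, whose function is unknown, and *SDH3*, a subunit of succinate dehydrogenase, 363-fold above *SHH3*. *ERG10*, which condenses acetyl-CoA for sterols, stood 257-fold above *POT1*, the thiolase of fatty acid oxidation in the peroxisome, and *YEF3*, elongation factor 3, likewise 257-fold above *HEF3*. *RRT8* exceeded *LDS1* by 1340-fold, a value that rests on 30 summed counts of *LDS1* (95% counting interval 938 to 1986). *FLC2*, a membrane protein thought to carry flavin adenine dinucleotide, exceeded *YOR365C* by 928-fold. *YIL014C-A* exceeded *YIL102C* by 671-fold on 5 summed counts of *YIL102C*, with an interval of 288 to 2068, which covers counting error only. *YIL102C* was the only lower copy of the 501 pairs with under 10 counts in every library.

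Among glycolytic pairs all 6 were unequal, against 90.2% of all pairs, and 3 of them were at least 4-fold apart, against 32.5%. *TDH3* stood 5.48-fold above *TDH2*, with the lowest *TDH3* library at 9579 TPM and the highest *TDH2* library at 1912 TPM. *ENO2* stood 3.61-fold above *ENO1* (4165 ± 345 TPM against 1153 ± 181 TPM, SD, n = 5 each). *CDC19*, the main pyruvate kinase, averaged 2835 TPM and *PYK2* 22.7 TPM, 125-fold apart. At the plasma membrane, the proton pump *PMA1* averaged 577 TPM and *PMA2* 2.25 TPM, 256-fold apart. *TDH3*, *ENO2* and *CDC19* are known as the main glycolytic forms in glucose.

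Ribosomal protein pairs had a median ratio of 1.71-fold, against 2.23-fold over all pairs. Of 49 pairs, 42 were unequal, against 90.2% of all pairs, 19 were at least 2-fold apart, against 56.5%, and 8 at least 4-fold, against 32.5%. *RPL15A* had 2639, 2650, 2715, 2629 and 2810 TPM in BY 1 to BY 5 and *RPL15B* 64.3, 66.4, 66.9, 58.6 and 60.3 TPM, a ratio of 42.5-fold (limma adjusted p = 1.39e-09) between proteins that are 99.0% identical. *RPS9B* exceeded *RPS9A* by 20.1-fold, *RPL22A* exceeded *RPL22B* by 14.9-fold and *RPL7A* exceeded *RPL7B* by 11.6-fold. In the last 3 pairs the lower copy was highest in BY 5. *RPS14A* and *RPS14B* were 9.40-fold apart, *RPS22A* and *RPS22B* 5.09-fold and *RPL9A* and *RPL9B* 4.23-fold.

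**Figure D3:**
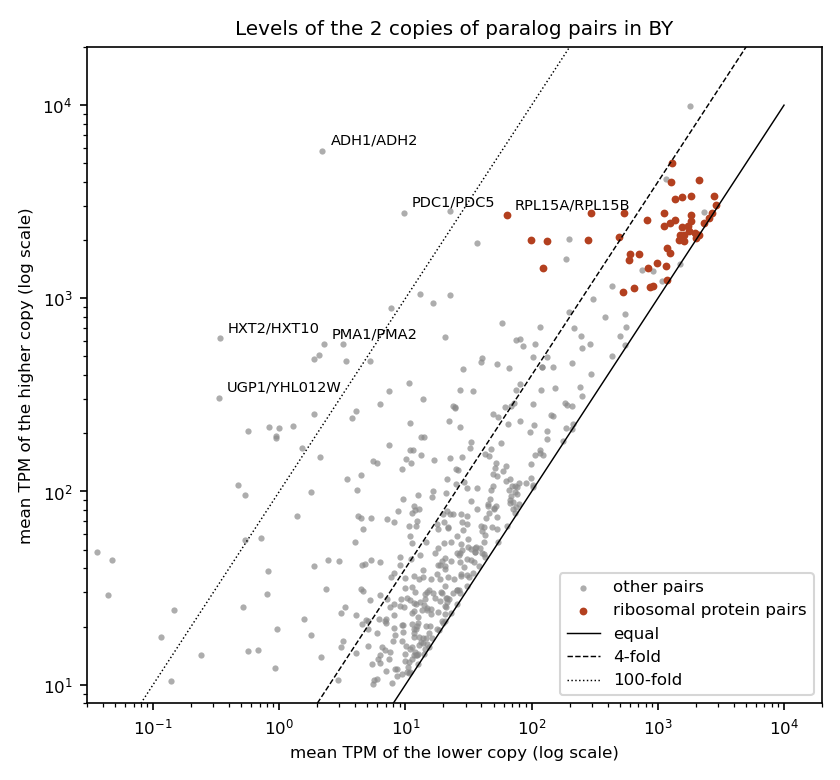
Mean TPM of the higher copy (y axis) against that of the lower copy (x axis) for 501 paralog pairs, both on log scales, with ribosomal protein pairs marked and lines at equal levels, at 4-fold and at 100-fold. Of these pairs 163 lie beyond the 4-fold line, with *ADH1* and *ADH2* farthest from equality.

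At the other end, some pairs had nearly equal copies. The glycogen synthases *GSY2* and *GSY1* averaged 209.8 and 209.7 TPM, and the ratio of the copies had a log2 of 0.01 ± 0.04 (SE, limma adjusted p = 0.88), although each varied from 173 to 259.8 TPM and from 161 to 267 TPM between libraries. Both copies were high in BY 2 and BY 3. The histone H2A genes *HTA2* and *HTA1* averaged 1512 and 1503 TPM (adjusted p = 0.96), the flippases *DNF2* and *DNF1* 12.8 and 12.6 TPM (adjusted p = 0.94), *IRC24* and *NRE1* 54.5 and 53.7 TPM (adjusted p = 0.86), and *RPS16B* and *RPS16A* 2135 and 2103 TPM (limma adjusted p = 0.79). A p above the threshold does not show that copies are equal. The SEs of the log2 ratios of these 5 pairs lay between 0.04 and 0.08. The ratio of *CYC7* to *CYC1*, the cytochrome c genes, was 1.40-fold with an adjusted p of 0.10 by limma, and *CYC7* alone varied from 125 to 273 TPM.

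Among chaperones, *HSC82* had 401, 469, 564, 486 and 555 TPM in BY 1 to BY 5, and *HSP82*, the heat-inducible gene of Hsp90, had 69.0, 127, 160.1, 128 and 179 TPM. The ratio was 3.73-fold (limma adjusted p = 9.18e-06), and both were lowest in BY 1. *SSA1* and *SSA2*, which encode cytosolic Hsp70, averaged 575 ± 107 and 552 ± 30.8 TPM (SD, n = 5 each, adjusted p = 0.65). Of the 10 chaperone pairs, 8 were unequal and 5 at least 4-fold apart, against 90.2% and 32.5% of all pairs.

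The libraries held the messages of a MATa haploid. In such cells the a-specific genes, which make a-factor and the receptor of alpha-factor, are known to be expressed and the alpha-specific genes to be off. All 7 a-specific genes stood above 10 TPM, with the a-factor genes *MFA2* and *MFA1* at 3133 and 2578 TPM, the agglutinin subunit *AGA2* at 458 TPM, the alpha-factor receptor *STE2* at 333 TPM, the protease *BAR1* at 60.0 TPM, the exporter *STE6* at 33.2 TPM and *ASG7* at 20.9 TPM. All 4 alpha-specific genes were below 10 TPM, with *SAG1* at 7.16 TPM, *STE3* at 1.53 TPM, MF(ALPHA)1 at 0.602 TPM and MF(ALPHA)2 at 0.401 TPM. *HMRA1*, which shares its sequence with the a1 gene of MATa, averaged 95.4 TPM and *HMRA2* 22.0 TPM. *MATALPHA1* and *HMLALPHA1*, which are identical in sequence, were both under 10 counts in every library, at 0.0368 TPM each, while *MATALPHA2* and *HMLALPHA2*, identical to each other and in part to *HMRA2*, stood at 18.0 TPM each.

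Marker genes did not all follow the strain names. A BY4741 strain is known to carry deletions at *HIS3*, *LEU2*, *MET17* and *URA3*. The study lists its BY strain with *HIS3* and *HO* deleted and with histidine as the only auxotrophy, so *LEU2*, *MET17* and *URA3* are not listed as deleted. *HIS3* had 65.6, 64.4, 77.2, 67.7 and 74.4 TPM in BY 1 to BY 5. *LEU2* averaged 68.3 TPM, *MET17* 123 TPM and *URA3* 94.7 TPM, and *HO*, the mating type endonuclease, had 15.9, 8.11, 8.57, 8.39 and 10.2 TPM. All 10 markers examined were detected, with *ADE2* between 133 and 255 TPM, *CAN1* at 74.9 TPM, *LYS2* at 71.1 TPM, *TRP1* at 62.9 TPM and *LYP1* at 60.2 TPM. What part of each gene the reads cover was not tested, since the values are given per transcript.

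Transporters for hexoses were the highest members among the groups of genes that were labelled low for this description. The label was given to whole groups, and whether glucose holds any of these transporters low was not tested. Of the 19 hexose transporter genes, 6 stood at 100 TPM or more and 10 below 1 TPM. *HXT7*, a high-affinity transporter, had 1252, 1874, 1595, 1234 and 878 TPM in BY 1 to BY 5, and *HXT6* averaged 166 TPM. Only 4.3% of the 31-base words of each occur in no other transcript, so their split is uncertain. *HXT2* averaged 621 ± 73.5 TPM, *HXT3*, a low-affinity transporter, 583 ± 66.2 TPM, *HXT4* 483 ± 109 TPM (SD, n = 5 each) and *HXT1* 106 TPM. *HXT16* was listed at 0 in all 5 libraries. *OLE1*, the fatty acid desaturase that also responds to oxygen, was the next highest of these groups at 316 ± 73.7 TPM (SD, n = 5), with 422 TPM in BY 1 and 232 TPM in BY 5, and *DAN1*, an anaerobic cell wall gene, was at 0.0783 TPM.

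Genes for other carbon sources were mostly low, but all members of the groups named here were detected. Of the 7 galactose genes in the tables, 1 stood above 10 TPM, the repressor *GAL80* at 24.4 TPM, and *GAL10* was lowest at 0.372 TPM. *GAL1*, the galactokinase, had 3.26, 3.80, 3.70, 3.24 and 2.73 TPM in BY 1 to BY 5. It lies wholly inside another annotated gene, the noncoding *YNCB0008W*, on the same strand. Reads from *YNCB0008W* and from *GAL1* cannot be told apart here. The 21 genes of gluconeogenesis and the glyoxylate cycle had a median of 3.14 TPM, with *ACH1* highest at 33.7 TPM, *PCK1* at 2.29 TPM, *FBP1* at 0.791 TPM and *POX1*, the acyl-CoA oxidase, lowest at 0.433 TPM. Among the 14 maltose and sucrose genes, invertase, *SUC2*, was highest at 52.6 TPM and *MPH3* lowest at 0.300 TPM.

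Meiotic genes and some subtelomeric families were low as well. The 59 genes of meiosis and sporulation had a median of 1.05 TPM, against 22.2 TPM in all annotated nuclear genes, and 3 of them reached 10 TPM. *MSC7* was highest at 40.8 TPM and *MER1*, a meiosis-specific splicing activator, lowest at 0.0112 TPM with 7 counts in all. Of the 26 seripauperin genes, a cell wall family near chromosome ends, 5 were under 10 counts in every library, and they ranged between 14.8 TPM for *PAU23* and 0 for *PAU9*. The COS and YRF1 families had a higher median, of 8.40 TPM, and ranged between 77.5 TPM for *COS6* and 0.147 TPM for *COS4*, and all 5 flocculation genes were below 10 TPM, between 3.82 TPM for *FLO5* and 0.791 TPM for *FLO9*. Members of these families share sequence, and reads may be split among them.

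Nutrient genes had wide ranges. In the phosphate regulon, *VTC1*, a polyphosphate polymerase subunit, was highest at 605 TPM and *GIT1* lowest at 2.05 TPM. Among methionine and sulfate genes, *SAM2*, an S-adenosylmethionine synthetase, stood at 312 TPM and the sulfate permease *SUL1* at 0.216 TPM. Among amino acid permeases, *AGP1* stood at 224 TPM and *ALP1* at 1.39 TPM, and among zinc genes *ZRC1* at 109 TPM and the regulator *ZAP1* at 5.35 TPM. *CUP1-1* and *CUP1-2*, the metallothionein genes, had 5019.7 TPM each and are identical in sequence, and they overlap other annotated genes, while the ferric reductase *FRE5* stood at 0.361 TPM.

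Detection was broad at this depth. In 6027 transcripts (91.2%) each library had 10 or more estimated counts, while 340 had under 10 in every library, which is called silent here, and 245 lay between. For 78 transcripts the count was 0 in all 5 libraries, which at the summed depth of the 5 libraries allows a share of up to 7.01e-07% of the counts, for counting error only. Of the 683 transcripts without a match in the annotation, 238 (34.8%) were silent, against 92 of 5898 annotated nuclear genes (1.56%). Silent annotated genes were often short or not unique. Silence was found in 37 of 307 genes under 300 bases and in 21 of 117 genes with under 10% unique words, and 27 remained among the 5241 genes of at least 300 bases with at least 90% unique words (0.515%).

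The 27 silent genes that are long and unique are mostly without an assigned function. *RRT7* and *GAT3*, a GATA-type zinc finger protein, each had 3 counts in all 5 libraries together, *ECM23*, another GATA-type protein, had 5, *MER1* had 7, *YFR057W*, which lies 0.645 kb from the end of chromosome VI, had 10, and *CDA2*, a chitin deacetylase that helps to build the spore wall, had 11. The 28 transcripts of the mitochondrial genome held 0.00357 to 0.00939% of TPM, and 13 of them were silent. The libraries were made from polyadenylated RNA, and mitochondrial mRNAs of yeast lack such tails.

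Near chromosome ends levels were lower. Of the 244 genes within 20 kb of an end, 26 (10.7%) were silent, with a median of 4.04 TPM, against 58 of 5207 genes (1.11%) and a median of 23.7 TPM beyond 50 kb. Within 5 kb, 14 of 56 genes were silent. Genes near ends had a median of 76.7% unique words, however, against 100% beyond 50 kb. Among genes of at least 300 bases with at least 90% unique words, 1 of 100 (1.00%) within 20 kb and 24 of 4750 (0.505%) beyond 50 kb were silent, while the medians were 9.82 TPM and 22.7 TPM. The excess of silent genes near ends was thus mostly among genes that share sequence or are short, and the lower median held among unique ones too.

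Most transcripts varied little between the replicate cultures. Variation was measured as the SD over the 5 libraries of log2(TPM + 1), for the 4187 transcripts of at least 300 bases with a mean of at least 10 TPM. The median SD was 0.12, and 80% of transcripts lay between 0.05 and 0.28, against a median of 0.02 from Poisson counting alone. The median coefficient of variation was 8.35%. An SD over 0.5 was found in 68 transcripts (1.62%), with values just inside and outside this limit of 0.502 and 0.499, and 64 of the 68 also exceeded it with TMM-normalized counts. The highest and the lowest library were over 2-fold apart in 168 transcripts.

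Many of the variable transcripts had BY 1 and BY 5 as their extremes. Of the 68, 26 were highest in BY 5 and lowest in BY 1, 15 were highest in BY 1 and lowest in BY 5, and 27 had another pattern. Over all 4187 tested transcripts, 531 had the first of these patterns and 489 the other. The first principal component of the log2 levels held 72.6% of the variance and placed the libraries at -10.0 (BY 1), -8.57 (BY 2), -2.63 (BY 3), 6.47 (BY 4) and 14.8 (BY 5). These positions follow the sequence of the replicate numbers, as do the levels of several genes described next, and the labels do not say what the numbers stand for. Whether this axis follows the batch of extraction, the density at harvest or another feature of the cultures was not tested, since neither is used here per library.

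Of the lists examined, that of nitrogen use had the largest share of members with an SD over 0.5. When good nitrogen sources such as glutamine or ammonium are plentiful, yeast is known to shut off the uptake of poorer ones, which is called nitrogen catabolite repression, and GATA factors turn these genes on when the supply falls. *DUR12*, the urea amidolyase, had 79.0, 48.7, 41.7, 10.0 and 7.79 TPM in BY 1 to BY 5 (SD of log2 1.41). *MEP2*, an ammonium permease, had 80.7, 53.2, 44.4, 11.2 and 8.69 TPM (SD 1.37), and *GAP1*, the general amino acid permease, had 183, 146, 117, 38.5 and 24.3 TPM (SD 1.26). In all 3 genes BY 4 and BY 5 stood apart below the other libraries. *DUR3*, the urea transporter, had an SD of 1.11, *DAL3* of allantoin breakdown 0.75 and *CAR1*, the arginase, 0.75, and all were highest in BY 1 and lowest in BY 5. The ammonium permeases *MEP1* and *MEP3* had SDs of 0.66 and 0.55, and *DAL7*, also of allantoin use, had 0.61.

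Of the 19 tested genes of the nitrogen list, these 9 exceeded an SD of 0.5, against 1.62% of all tested transcripts. The ASP3 genes of asparagine use, 4 of the 19, are copies that share 1 value, with an SD of 0.08. The median deviation of the list from each gene's own mean was 0.42, 0.33, 0.15, -0.22 and -0.73 on the log2 scale in BY 1 to BY 5, and with TMM-normalized counts it was 0.46, 0.30, 0.13, -0.18 and -0.77. For all 4187 transcripts the medians lay between -0.04 and 0.03. The list was lowest in BY 5 in 15 of its 19 genes and in BY 4 in the other 4. *GDH1*, the glutamate dehydrogenase that assimilates ammonium, had 695, 550.1, 499, 323 and 305 TPM in BY 1 to BY 5, the same libraries at the top and the bottom.

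The promoters of this list hold the GATA word GATAAG often. It was searched on both strands in the 300 bases upstream of the start codon in R64, where 872 of 5897 promoters (14.8%) hold it, and it stood in 16 of the 27 promoters of the list (59.3%) and in 8 of 14 promoters of the variable genes that were highest in BY 1 and lowest in BY 5 (57.1%). The windows of *DUR12*, *DUR3*, *CAR1* and *MEP1* hold none. Within the list, the 11 tested genes with the word had a median SD of 0.20, and the 8 without it a median of 0.58, where the ASP3 copies count among those with it. It contains neither of the words counted below, and neighbouring matches may share bases. A match is a description of the sequence and not a measured site. Of the list, *DAL3*, *DAL7*, *MEP2*, *GAP1* and *MEP3* exceeded an SD of 0.5 and hold the word. All of them were highest in BY 1 and lowest in BY 5. The counts of 16 and of 8 promoters thus share these genes and are not separate observations. In the sequences below, capitals mark GATAAG or its reverse complement. As examples, the 30 bases around the densest matches of *DAL3*, *DAL7* and *MEP2* are shown, 5′ to 3′ on the strand of the gene. They lie at chrIX:415764-415793 (minus strand), chrIX:414833-414862 (minus strand) and chrXIV:357208-357237 (plus strand) of R64, and hold 2, 2 and 1 of the 5, 3 and 1 matches in the 300 bases.
DAL3: aaagtgccaGATAAGATAAGatggattggc
DAL7: gttttggCTTATCttgGATAAGgtacatcg
MEP2: aagaccctgtgcCTTATCaatgaagtattc

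**Figure D4:**
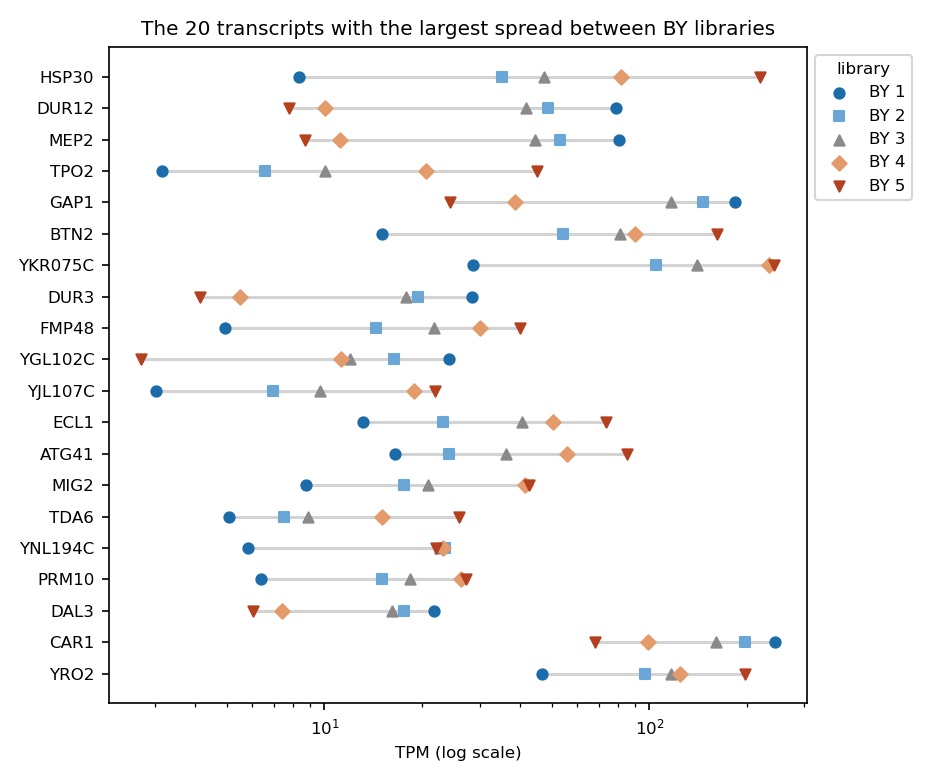
TPM (x axis, log scale) in each of the 5 BY libraries, as points of 1 colour and shape per library, for the 20 transcripts with the largest SD (y axis), and grey lines that join the lowest to the highest library. *HSP30* has the widest spread, with an SD of 1.67, and *DUR12*, *MEP2* and *GAP1* have their lowest values in BY 5, where *HSP30* and *BTN2* have their highest.

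Other genes had the opposite pattern. *HSP30*, a stress protein of the plasma membrane, had 8.33, 35.1, 47.5, 82.0 and 219 TPM in BY 1 to BY 5, the largest spread of all tested transcripts (SD 1.67, 26.3-fold between BY 5 and BY 1). *TPO2*, a polyamine exporter, had 3.16, 6.57, 10.0, 20.5 and 45.1 TPM (SD 1.34), and *BTN2*, which sorts misfolded proteins, had 14.98, 54.2, 81.0, 90.1 and 162 TPM (SD 1.25). *YKR075C* had 28.6, 105, 140.4, 233 and 241 TPM (SD 1.24). In each of them BY 1 was the lowest library and BY 5 the highest. *FMP48* (SD 1.08), *YJL107C* (1.02), *ECL1* (0.94), *ATG41* (0.91), the glucose-responsive repressor *MIG2* (0.90), *TDA6* (0.84), *PRM10* (0.79) and *YRO2* (0.75) followed the same 2 extremes. *YJL107C* and *PRM10* overlap by 4 bases.

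For 7 of the 20 most variable transcripts the SD fell by more than 1.5 times when 1 library was left out. *YGL102C*, which has no match in the annotation, had 24.2, 16.4, 11.99, 11.2 and 2.72 TPM (SD 1.04), and without BY 5 its SD was 0.48. *YNL194C*, a membrane protein of the eisosome, had 5.84 TPM in BY 1 against 22.0 to 23.5 TPM in the other libraries (SD 0.81), and without BY 1 its SD was 0.04. Without BY 1, *PRM10* and *YRO2* also fell below 0.5, at 0.39 and 0.43, while *BTN2*, *YKR075C* and *FMP48* were at 0.65, 0.58 and 0.60. The count of transcripts over 0.5 was 44 without BY 5, of which 37 were among the 68, and it was 54, 74, 101 and 93 without BY 1, BY 2, BY 3 and BY 4.

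Genes of ribosome assembly moved together at smaller amplitude. The list covers the factors that process ribosomal RNA and build ribosomal subunits in the nucleolus. Of its 68 tested genes, 63 were highest in BY 5, 47 were lowest in BY 2 and 16 in BY 1, against 1294, 607 and 1041 of all 4187 tested transcripts, with median deviations of -0.22, -0.27, -0.08, 0.17 and 0.42 on the log2 scale in BY 1 to BY 5. Its median SD was 0.31, against 0.12 in all tested transcripts, and 3 genes exceeded 0.5, against 1.62% of all tested transcripts. *NOG2*, a GTPase of the large subunit, had 16.7, 12.5, 17.1, 27.9 and 39.1 TPM, *NOG1*, another such GTPase, 24.6, 24.3, 35.4, 45.5 and 57.4 TPM, and *ARX1*, an export factor of the large subunit, 14.4, 13.4, 20.4, 24.1 and 34.2 TPM. In all 3 the highest value was in BY 5 and the lowest in BY 2.

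The word GCGATGAG, known as the PAC element of such genes, stands in 44 of the 76 promoters of the list (57.9%), against 243 of all 5897 (4.12%), on both strands and in the same 300 bases. All 41 tested list genes with the word were highest in BY 5, as were 22 of the 27 without it. Over all tested transcripts, 154 of 190 with the word were highest in BY 5, against 1133 of 3956 without it. The 30 bases around the match are shown for *NOG2* (chrXIV:723275-723304, minus strand) and *NOG1* (chrXVI:370824-370853, plus strand) in the same way, with the reverse complement of the word in capitals. The window of *ARX1* holds no match.
NOG2: tttgcccgatgCTCATCGCaaaaatttttc
NOG1: tttttccgcagCTCATCGCaaagaaaaatt

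Ribosomal protein genes had smaller deviations. The medians of the 119 tested ribosomal protein genes were 0.01, -0.10, -0.02, 0.01 and 0.12 in BY 1 to BY 5, and none of them exceeded an SD of 0.5. Of them, 83 were highest in BY 5 and 70 lowest in BY 2, against 1294 and 607 of all 4187. The 29 tested RNA polymerase genes had medians of -0.06, -0.16, -0.03, 0.06 and 0.26, and 22 were highest in BY 5, against the same 1294 of 4187. The difference between ribosome assembly and ribosomal protein genes was not tested, since members of a list are not replicates.

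General stress genes set BY 2 and BY 3 apart. These targets of the stress activators Msn2 and Msn4 had median deviations of -0.27, 0.34, 0.30, -0.15 and -0.24 over 35 tested genes, of which 21 were highest in BY 2 and 13 in BY 3, against 1095 and 713 of all 4187 tested transcripts. *HSP12*, a small membrane-bound heat shock protein, had 469, 1043, 876, 487 and 368 TPM in BY 1 to BY 5 (SD 0.64), so that BY 2 and BY 3 did not overlap the other libraries. Of the 35, 5 exceeded an SD of 0.5, against 1.62% of all tested transcripts. *HOR7* was the highest gene of the whole list and *PHM7* the lowest at 2.34 TPM. The stress word AGGGG stands in 30 of the 44 promoters of the list (68.2%), against 22.5% of all promoters. Within the list, the 26 tested genes with the word had a median SD of 0.35, and the 9 without it 0.34. *HSP12* holds 2 matches. The match nearest the far end is shown in the same way (chrVI:107012-107041, plus strand), with the reverse complement in capitals.
HSP12: ctagatctacagCCCCTggaaaatcgtttg

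Respiratory and proteasome genes were higher in BY 1, BY 2 and BY 3 than in BY 4 and BY 5 by their medians. The 29 tested respiratory genes had median deviations of 0.22, 0.20, 0.11, -0.23 and -0.32, with 16 highest in BY 1, against 1000 of all 4187, and *SDH1*, the flavoprotein of succinate dehydrogenase, had 73.4, 77.5, 62.2, 44.7 and 30.9 TPM (SD 0.54). The 38 tested proteasome genes moved by less, with medians of 0.15, 0.10, 0.04, -0.12 and -0.15, and 27 of them were highest in BY 1, against the same 1000 of 4187. The 22 tested glycolytic genes had medians between -0.13 in BY 5 and 0.12 in BY 3. The 7 tested hexose transporters were at 0.18 and 0.16 in BY 2 and BY 3, against -0.21 in BY 1 and -0.28 in BY 5.

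**Figure D5:**
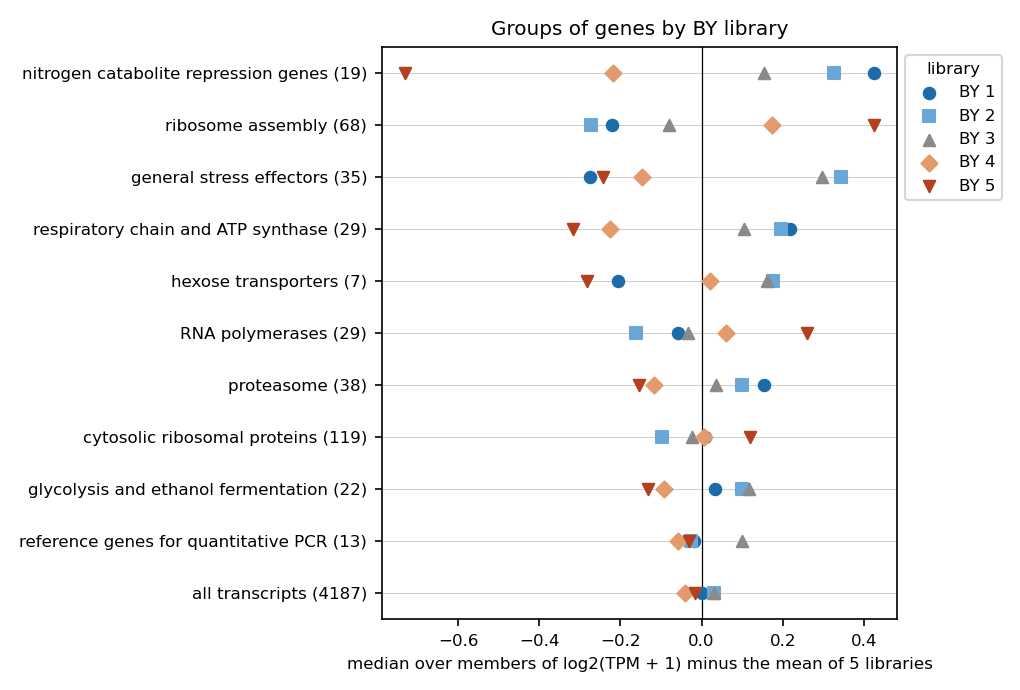
Median over members of log2(TPM + 1) minus the mean of the 5 libraries (x axis) for 10 gene lists and for all tested transcripts (y axis, number of tested members in brackets), with 1 point per BY library. Nitrogen genes lie between 0.42 in BY 1 and -0.73 in BY 5, ribosome assembly genes between -0.27 in BY 2 and 0.42 in BY 5, and all transcripts near 0.

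By TPM, the steadiest genes varied by no more than about their counting error, but they were picked for the smallest SDs. *MCY1* had 20.5, 20.3, 20.2, 20.1 and 20.3 TPM in BY 1 to BY 5 (SD of log2 0.01), *ELF1*, a factor of transcription elongation, had 246, 249.9, 251, 249 and 246 TPM, and *NMD5*, an importin, had 11.4, 11.4, 11.3, 11.2 and 11.4 TPM. With TMM-normalized counts the SDs of *MCY1*, *ELF1* and *NMD5* were 0.033, 0.021 and 0.034. Poisson counting alone would give 0.022, 0.013 and 0.017. Of 14 genes used as references in quantitative PCR, 13 were tested, and none exceeded an SD of 0.5, with a median of 0.11. *ACT1*, actin, was the most variable of them at 767, 789.8, 1042, 822 and 1053 TPM (SD 0.22), while *IPP1*, the inorganic pyrophosphatase, had 489, 497, 505, 491 and 472 TPM (SD 0.04). *TFC1* averaged 9.95 TPM and fell below the level needed for the test.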

How the data were processed

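The 5 BY libraries with wild-type *UBR1* were grouped by their labels; the 5 libraries of the other strain were not used. Poly(A) RNA was sequenced from directional libraries, and the authors trimmed the reads with fastp and quantified them with kallisto on the transcripts of Ensembl release 96, whose assembly and strand setting are not given in the sources used here. The estimated counts were deposited without normalization, and 5.32 to 5.94% of them per library have a fractional part as written, with no tolerance. The TPM values deposited by the authors divide these counts by effective length and sum to 1000000 per library. Depth was 72105131 to 94432416 estimated counts, so counting error was small beside the spread between libraries. The tables hold coding sequences, and of 5917 annotated coding genes 5908 have the same length in R64 (RefSeq). Transcripts and neighbours on the other strand could not be separated with certainty, and 172 coding transcripts overlap another annotated gene.

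Detected means at least 10 estimated counts in every library. Levels were analysed on log2(TPM + 1), and variation in transcripts of at least 300 bases and 10 TPM. Paralog pairs are mutual best blastp hits (2.17.0+) among proteins translated from RefSeq coding sequences, kept with at least 10% of 31-base words found in no other transcript, and tested with limma 3.58.1 in R 4.3.3, Benjamini-Hochberg adjusted p under 0.05. This differs in its source of proteins from the plan, which asked for a protein table. TMM (edgeR 4.0.16) and DESeq2 1.42.0 size factors of rounded counts were alternatives. Python 3.11.15, numpy 2.4.6, pandas 2.3.3, scipy 1.17.1 and matplotlib 3.10.9 were used. The variation and pair steps were tested on simulated data.

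Genes named are the 20 highest transcripts of at least 300 bases, the 5 highest shorter ones, the 20 largest SDs, the highest and lowest member of each list, the 10 largest and 5 smallest pair ratios with pairs of a hand-written list, the marker, mating type and reference genes, and the 5 highest members of lists expected to be low. Other genes named were chosen after their values were seen. The library group, lists and rules were chosen with earlier results of these data known.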

Additional observations from a re-analysis of the deposited data

Results flagged for a closer look

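The TPM of *YNL194C* in BY 1, 5.84, lay far below its values in the other 4 libraries, 22.0 to 23.5. The gap divided by the range was 0.918, above Dixon's critical value of 0.71 for 5 samples. It was the only one of 96 results tested in this way to pass. Chance alone passes about 1 in 20, but the results tested include the 20 largest SDs, and *YNL194C* is among them. These were picked by their spread over the same libraries, so that rate does not apply to them.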

How the results depend on the processing

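No paired analysis was possible because the libraries form 1 group. With estimated counts in place of TPM, 292 transcripts in place of 90 held 50% of the pool, ribosomal proteins 17.7% in place of 36.4% and glycolysis 11.6% in place of 5.13%. With counts per annotated length these were 162, 32.8% and 8.81%. Without transcripts under 300 bases ribosomal proteins held 38.7% and glycolysis 8.02%, and without *YLR154C-G*, an alternative chosen after seeing the data, 39.3% and 5.54%. Of the 18 other groups, 16, 17, 15 and 11 moved by more than 1 SD under these 4 settings. Under a mean TPM below 0.1 the count of transcripts not detected was 272 in place of 585. Silent transcripts numbered 218 with a minimum of 5 counts and 526 with a minimum of 20, in place of 340. A hand-written list of pairs, also chosen after seeing the data, gave 118 unequal pairs of 132 in place of 452 of 501, with 48 at least 4-fold apart. Over all pairs, 283 were at least 2-fold and 93 at least 10-fold apart, in place of 163 at 4-fold. Transcripts with an SD over 0.5 numbered 41 with a pseudocount of 5 TPM and 20 of 1515 at 50 TPM or more, in place of 68. The cause of these changes was not tested beyond the construction of each setting. Leaving out each library in turn gave 89 to 92 transcripts at 50%, 35.7 to 36.8% for ribosomal proteins, 5.06 to 5.21% for glycolysis, 559 to 582 transcripts not detected, 347 to 363 silent, 440 to 456 unequal pairs, 162 to 166 at 4-fold and 44 to 101 variable transcripts. No called result reversed its direction under the alternatives run, but the log2 ratios of the 5 nearly equal pairs, none of them called, changed sign without 1 or more libraries, within -0.04 to 0.09. By counts, translation factors (5.02%) held more than cell wall genes (2.91%), the other way round from TPM. The order was also reversed without transcripts under 300 bases (3.47% against 2.71%) and with counts per annotated length (3.54% against 3.17%). Depth limits only the lowest transcripts, and effective length limits those under 300 bases.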
